A study of Homo sapiens with 24 samples.

Results

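Cytoplasmic RNA of the glioblastoma cell line U-251MG was compared with cytoplasmic RNA of A-431, an epidermoid carcinoma line that grows as squamous epithelium, and of U-2 OS, an osteosarcoma line. The comparison used 11 of the 24 libraries of the series, namely 4 of U-251MG (libraries 17 to 20), 4 of A-431 (21 to 24) and 3 of U-2 OS (14 to 16). It asked which genes were detected at higher or lower levels in U-251MG than in both other lines. Of 19344 genes with enough reads for a test, 2967 were higher and 2864 were lower in U-251MG than in each of the other lines. These genes are described below.

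All 3 lines were grown untreated and are established human tumour lines, so that line, tissue of origin and tumour genotype differ together. The cytoplasmic fraction was separated from nuclei before poly(A) selection and sequencing, and the remaining 12 libraries hold total RNA of the same lines. Biological replication is stated by the study, yet no label links a library to its own culture, and the p-values therefore reflect library-to-library spread alone. A further U-2 OS cytoplasmic library, 13, was left out. The study set aside a U-2 OS cytoplasmic extract that carried a nuclear RNA signal, and whether it is this library is uncertain. Expression is given as CPM, a gene's reads relative to all reads counted in genes after scaling between libraries. CPM of different genes are not compared because they depend on transcript length.

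A glioblastoma is a tumour of glial character. Such tumours often express the transcription factors and intermediate filaments of neural stem cells and astrocytes, secrete a matrix rich in tenascin and hyaluronan-binding proteoglycans, and grow along vessels and white matter with the help of secreted proteases. Squamous carcinoma cells instead build keratin filaments, desmosomes and E-cadherin junctions, and osteosarcoma cells carry genes of the bone-forming lineage. Each of the lines has also been in culture for decades, and markers of the original tissue can be lost.

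The label of the line was checked against the markers of its tissue. Of the 6 markers fixed for U-251MG, GFAP, SOX2, FABP7, S100B and VIM were higher than in both other lines, and NES was not. GFAP, the astrocyte intermediate filament, was low at 3.03, 3.25, 4.34 and 5.45 CPM in U-251MG, against 0.0328 to 0.170 CPM in A-431 and 0.695 to 1.03 CPM in U-2 OS. Its log2 fold change was 5.52 over A-431 (SE 0.34, adjusted p = 4.58e-12) and 2.31 over U-2 OS (SE 0.25, adjusted p = 3.97e-08), and the lines did not overlap. NES, the neural stem cell filament nestin, had 48.1 to 58.2 CPM in U-251MG, against 0 to 0.125 CPM in A-431 and 171 to 183 CPM in U-2 OS. The osteosarcoma line was thus above U-251MG for this marker. The 7 epithelial markers fixed for A-431 summed to 0.545 to 2.07 CPM in U-251MG, against 1520.0 to 1567 CPM in A-431 and 508 to 534 CPM in U-2 OS. KRT17 made up most of the U-2 OS sum, at 0.350 ± 0.132 CPM in U-251MG, against 133 ± 7.60 CPM in A-431 and 497 ± 14.2 CPM in U-2 OS. KRT14 did not mark A-431, with 0 to 0.0717 CPM in U-251MG, 0.0341 to 0.219 CPM in A-431 and 10.11 to 12.33 CPM in U-2 OS. It did not differ between U-251MG and A-431 at the threshold (edgeR adjusted p = 0.0692). Both keratins were higher in every U-2 OS library than in any A-431 library, and KRT5, CDH1, EPCAM, DSP and TP63 were highest in A-431. The 7 bone-lineage markers fixed for U-2 OS summed to 2784 to 3036 CPM in U-251MG, against 34.0 to 38.2 CPM in A-431 and 2758 to 2923 CPM in U-2 OS. Single members differed between these lines in both directions behind the like sums, with COL1A1 at 22.7 ± 2.67 CPM in U-251MG, against 1430 ± 56.5 CPM in U-2 OS, and COL1A2, described below, the other way. Neuronal markers (3 of 4 tested) summed to 41.5 to 52.3 CPM in U-251MG, against 0.136 to 0.376 CPM in A-431 and 18.5 to 20.8 CPM in U-2 OS, where SYT1 carried the U-251MG sum and the other tested markers, SNAP25 and RBFOX3, were lower than in U-2 OS. Myeloid markers (2 of 3 tested) summed to 10.3 to 12.3 CPM in U-251MG, against 4.89 to 5.90 CPM in A-431 and 1.23 to 1.36 CPM in U-2 OS, nearly all of it CSF1R in U-251MG, while PTPRC was lower than in U-2 OS. In bulk RNA, fewer cells that express a gene and less RNA per cell cannot be told apart.

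Gene counts per library were 25987258 to 28349560 in U-251MG, 28858299 to 32394170 in A-431 and 25915013 to 27551776 in U-2 OS. Log2 levels correlated across the tested genes at 0.992 to 0.995 between U-251MG libraries, against 0.776 to 0.790 with A-431 libraries and 0.809 to 0.817 with U-2 OS libraries. Genes are not independent replicates and these values are a description. The labels give no flow cell. Read totals in the study's run list placed libraries 19 and 20 of U-251MG and, with only part of its totals matching, 14 of U-2 OS on another flow cell than the rest, and a fit with flow cell as a term on that footing called 2967 genes higher and 2798 lower in U-251MG.

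A gene was called when its adjusted p in the edgeR quasi-likelihood test was under 0.001 in both contrasts. Against A-431, 5815 genes were higher in U-251MG (30.1% of the genes tested) and 5797 lower (30.0%). Against U-2 OS, 5558 were higher (28.7%) and 6425 lower (33.2%). The 2967 genes higher in U-251MG than in both lines were 15.3% of the genes tested, and the 2864 lower ones 14.8%. The contrasts share the U-251MG libraries, so the size of their overlap is only the count of the comparison itself. The smaller of the 2 log2 fold changes had a median size of 0.74 in the higher genes and 1.09 in the lower genes. It was over 5 in 139 higher and 401 lower genes. A test against a 2-fold change left 2147 genes higher (11.1%) and 2414 lower (12.5%) than A-431, and 1640 higher (8.48%) and 3156 lower (16.3%) than U-2 OS. It left 639 higher (3.30%) and 1084 lower genes (5.60%) against both lines. The genes that stand farthest from both other lines were therefore more often lower than higher in U-251MG. The libraries of U-251MG lay wholly above all 7 others in 2954 of the 2967 higher genes, and wholly below them in 2858 of the 2864 lower genes, where 19.6% and 18.9% of all genes tested did not overlap in that way.

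**Figure D1:**
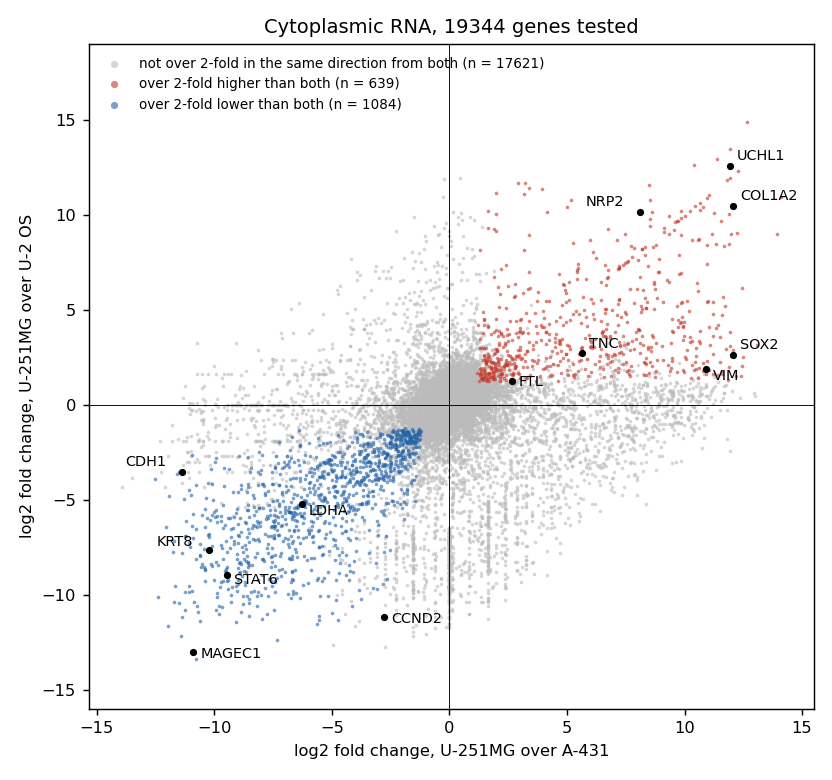
Each point is 1 of 19344 genes, with the log2 fold change of U-251MG over A-431 on the x axis and of U-251MG over U-2 OS on the y axis; red points are the 639 genes over 2-fold higher and blue points the 1084 genes over 2-fold lower than both lines. UCHL1 and COL1A2 lie far from both lines in the upper right, VIM and SOX2 lie far from A-431 but near U-2 OS, and KRT8, STAT6 and MAGEC1 lie far from both in the lower left.

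The genes with the greatest distance upward included transcription factors of the developing brain. POU3F2, a POU-domain factor of neural progenitors also called BRN2, had 88.8, 96.4, 127 and 124 CPM in U-251MG, against 0.0681 to 0.125 CPM in A-431 and 0.245, 0.0733 and 0 CPM in U-2 OS. Its log2 fold changes were 10.03 (SE 0.25, adjusted p = 3.25e-15) and 9.94 (SE 0.28, adjusted p = 2.76e-14). EYA4, a transcriptional coactivator with phosphatase activity, had 76.0 to 81.6 CPM in U-251MG, against 0 in all A-431 libraries and 0.105, 0 and 0 CPM in U-2 OS. It was at least 3147-fold higher than in A-431, where the bound takes 3 reads over the 4 libraries, and 2213-fold higher than in U-2 OS (95% counting interval 757 to 10731, from 3 reads). ZIC1, a zinc finger factor of the neural plate, was at 18.9 to 22.4 CPM in U-251MG, against 0 in A-431 and at most 0.0701 CPM in U-2 OS. None of these factors overlapped with another line in any library, which the naming rule required of the genes of greatest distance.

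SOX2 separated the other lines from each other as well. This pluripotency and neural stem cell factor had 74.7, 81.4, 101 and 100.05 CPM in U-251MG, against 0.0627, 0, 0 and 0 CPM in A-431 and 14.4, 13.4 and 15.8 CPM in U-2 OS. Its log2 fold change over U-2 OS was 2.62 (SE 0.12, adjusted p = 2.00e-13), and over A-431 it was 5371-fold higher (interval 1486.5 to 44358, from 2 reads). All U-251MG libraries were above the U-2 OS range, which was itself above A-431.

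Among 44 tested glial and neural stem cell genes, 16 were higher in U-251MG than in both lines (36.4%) and 6 were lower (13.6%), with median log2 fold changes of 2.50 over A-431 and 0.17 over U-2 OS. Over all genes tested 15.3% were higher and 14.8% lower, with medians of 0.01 and -0.04. Protein-coding genes alone were called more often, 17.5% higher and 16.5% lower. These values are the background for every list below. FABP7, the fatty acid binding protein of radial glia, had 63.1 to 74.7 CPM in U-251MG, against 0 in every A-431 library and 0.0366 to 0.175 CPM in U-2 OS. It was at least 2744-fold higher than in A-431 and 509-fold higher than in U-2 OS. S100B, an astrocyte calcium-binding protein, had 5.801 to 7.57 CPM in U-251MG, against 0 in A-431 and a single read in U-2 OS. GPM6A, a membrane glycoprotein of neurons and progenitors, had 184 to 202 CPM in U-251MG, against 0.0983 to 0.350 CPM in A-431 and 1.21 to 2.12 CPM in U-2 OS. The list did not move as a whole, because NDRG2, ALDOC, NFIA and CSPG4 were over 2-fold lower than in both lines. NDRG2, an astrocyte-enriched protein, averaged 0.536 ± 0.0760 CPM in U-251MG (SD, n = 4), against 16.1 ± 1.71 CPM in A-431 (n = 4) and 25.1 ± 0.393 CPM in U-2 OS (n = 3). CSPG4, the NG2 proteoglycan of oligodendrocyte precursors, averaged 6.59 ± 0.848 CPM in U-251MG, against 41.5 ± 2.39 CPM in A-431 and 109 ± 3.98 CPM in U-2 OS. NFIA, a gliogenic transcription factor, averaged 8.07 ± 0.853 CPM in U-251MG, against 23.9 ± 0.858 CPM in A-431 and 46.3 ± 4.20 CPM in U-2 OS.

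Of 18 tested neuronal genes, 6 were higher than in both lines (33.3%, against 15.3% of all genes) and 2, SYP and ELAVL2, were lower (11.1%, against 14.8%), with medians of 2.90 over A-431 and -1.48 over U-2 OS. UCHL1, a deubiquitinating enzyme that is abundant in neurons, had 1189.7, 1101, 934 and 961 CPM in U-251MG, against 0.0655 to 0.443 CPM in A-431 and 0.420, 0 and 0.0695 CPM in U-2 OS. Its log2 fold changes were 11.92 (SE 0.26, adjusted p = 5.66e-13) and 12.59 (SE 0.32, adjusted p = 2.49e-12). Within U-251MG libraries 17 and 18 were above 19 and 20, the libraries placed on another flow cell by read totals. Whether the flow cell bears on this split was not tested. The synaptic genes were at moderate levels. NLGN1, the postsynaptic adhesion protein neuroligin 1, averaged 38.6 ± 5.30 CPM in U-251MG, against 0 in A-431 and 4.3975 ± 0.169 CPM in U-2 OS. SYT1, the calcium sensor of synaptic vesicles, averaged 40.2 ± 7.61 CPM in U-251MG, against 0.145 ± 0.115 CPM in A-431 and 2.56 ± 0.238 CPM in U-2 OS.

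**Figure D2:**
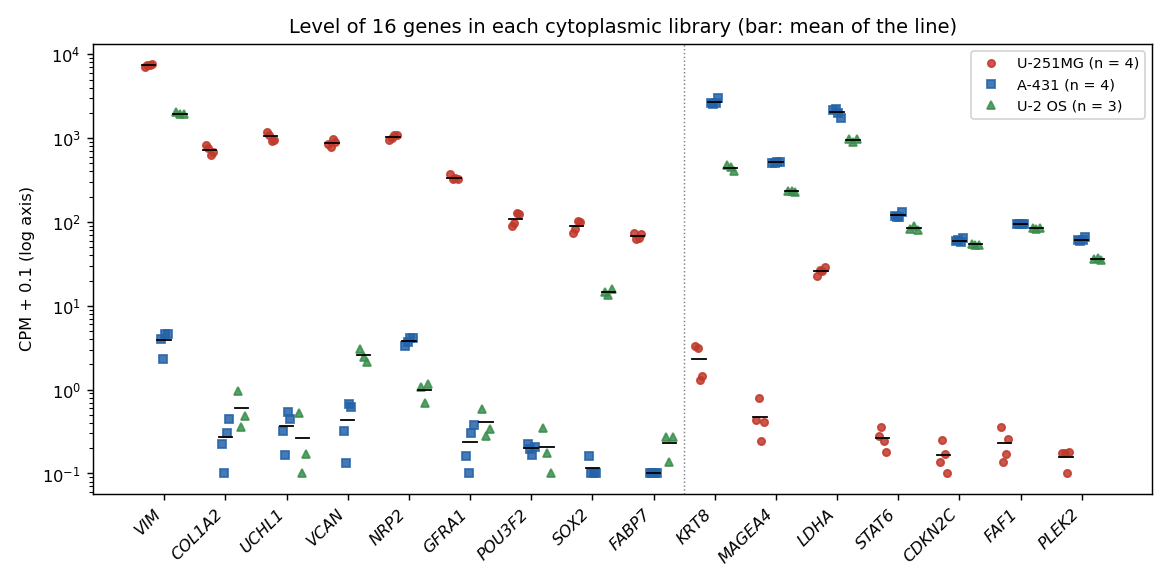
Levels of 16 genes in each cytoplasmic library, as CPM plus 0.1 on a log axis; for each gene U-251MG (circles, n = 4) stands left of A-431 (squares, n = 4) and U-2 OS (triangles, n = 3), black bars are means, and the dotted line parts higher from lower genes. The U-251MG libraries lie within a narrow range for the 9 higher genes, and for the 7 lower genes they lie below every other library, with LDHA still at 22.3 to 29.3 CPM and the rest, apart from KRT8, under 1 CPM.

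Genes of the cytoskeleton and matrix were among the higher genes. VIM, the mesenchymal filament vimentin, had 7074, 7426, 7392 and 7566 CPM in U-251MG, against 2.20 to 4.56 CPM in A-431 and 2021, 1935 and 1921 CPM in U-2 OS. The log2 fold changes were 10.93 (SE 0.16, adjusted p = 2.83e-19) and 1.91 (SE 0.11, adjusted p = 9.62e-11). The epithelial line was near 0, and U-2 OS was far above it but below every U-251MG library. ACTG2, the gamma actin of smooth muscle, averaged 119 ± 10.2 CPM in U-251MG, against 0.124 ± 0.0537 CPM in A-431 and 0.235 ± 0.0685 CPM in U-2 OS.

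COL1A2, which encodes a chain of type I collagen, had 818, 757, 635 and 690.1 CPM in U-251MG, against 0 to 0.350 CPM in A-431 and 0.876, 0.256 and 0.382 CPM in U-2 OS. Log2 fold changes were 12.05 (SE 0.25, adjusted p = 6.37e-14) and 10.47 (SE 0.26, adjusted p = 4.24e-13). COL1A1, which encodes the other chain, differed from U-2 OS in the opposite direction (log2 fold change -5.98, SE 0.10, adjusted p = 1.11e-20). Of 38 tested collagen genes, 13 were higher than in both lines (34.2%) and 2 were lower (5.26%), with medians of 2.61 over A-431 and 0.02 over U-2 OS. COL7A1, the anchoring fibril collagen, averaged 263 ± 16.5 CPM in U-251MG, against 0.982 ± 0.0915 CPM in A-431 and 17.2 ± 2.36 CPM in U-2 OS.

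VCAN, the hyaluronan-binding proteoglycan versican, had 845, 785, 968 and 898 CPM in U-251MG, against 0.0328 to 0.579 CPM in A-431 and 2.98, 2.34 and 2.05 CPM in U-2 OS. Over A-431 and U-2 OS the log2 fold changes were 11.34 (SE 0.22, adjusted p = 7.29e-15) and 8.47 (SE 0.20, adjusted p = 1.02e-13). TNC, the glycoprotein tenascin C, had 2214, 1990.5, 1719 and 1717 CPM in U-251MG, against 37.5 to 39.99 CPM in A-431 and 286 to 297 CPM in U-2 OS. Both matrix genes were highest in every U-251MG library. Of 58 tested matricellular and other matrix genes, 15 were higher (25.9%) and 8 lower (13.8%), with medians of 0.81 over A-431 and -1.43 over U-2 OS. THBS1, an adhesive glycoprotein of platelets and matrix, averaged 3203 ± 144 CPM in U-251MG, against 396 ± 28.0 CPM in A-431 and 1217 ± 62.3 CPM in U-2 OS. TGFBI, an integrin-binding protein induced by TGF-beta, averaged 1905 ± 95.2 CPM in U-251MG, against 154 ± 21.8 CPM in A-431 and 67.6 ± 3.86 CPM in U-2 OS. Of 33 tested laminins and integrins, 9 were higher (27.3%) and 2 lower (6.06%). FBLN1 and HSPG2 were among the 8 lower genes of the matrix list. FBLN1, fibulin 1, averaged 0.185 ± 0.0787 CPM in U-251MG, against 43.9 ± 7.43 CPM in A-431 and 153 ± 7.90 CPM in U-2 OS. HSPG2, perlecan, averaged 12.4 ± 1.88 CPM in U-251MG, against 121 ± 11.6 CPM in A-431 and 289.7 ± 27.7 CPM in U-2 OS.

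The bone-lineage list had the highest share of higher genes among the lists with at least 10 tested members, with 11 of 22 higher in U-251MG than in both lines and 2 lower (9.09%), and medians of 3.04 over A-431 and 0.62 over U-2 OS. The lists were chosen with earlier results of these data known, so their order is only a description. The 2 lower members, DLX3 and MSX2, are homeobox factors. COL1A1 and ALPL, an alkaline phosphatase of bone, were far below U-2 OS (log2 fold changes -5.98 and -7.37). SPARC, osteonectin, averaged 1982 ± 73.2 CPM in U-251MG, against 1.13 ± 0.225 CPM in A-431 and 1326 ± 41.5 CPM in U-2 OS, a log2 fold change over U-2 OS of 0.58 (SE 0.06, adjusted p = 7.03e-08). RUNX2, the bone transcription factor, averaged 58.1 ± 2.81 CPM in U-251MG, against 23.3 ± 0.931 CPM in A-431 and 36.8 ± 2.97 CPM in U-2 OS. On the RPKM values with limma, neither differed from U-2 OS at the threshold (adjusted p = 0.0694 for SPARC and 0.0601 for RUNX2). CDH11, a mesenchymal cadherin, averaged 136 ± 5.05 CPM in U-251MG, against 0.0682 ± 0.0489 CPM in A-431 and 43.3 ± 2.001 CPM in U-2 OS. SPP1, osteopontin, averaged 75.1 ± 5.37 CPM in U-251MG, against 0.0260 ± 0.0335 CPM in A-431 and 4.55 ± 0.494 CPM in U-2 OS.

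Of 61 tested secreted proteases and their inhibitors, 18 were higher (29.5%) and 11 lower. The shares were 15.3% and 14.8% of all genes, and 17.5% and 16.5% of protein-coding genes. The share of lower members was thus near that of protein-coding genes, and only the share of higher members stood well above it. PLAU, the urokinase that activates plasminogen, had 1870.2, 1545, 1179 and 1282 CPM in U-251MG, against 195 to 272 CPM in A-431 and 26.8 to 29.5 CPM in U-2 OS. Its log2 fold changes were 2.72 (SE 0.15, adjusted p = 6.62e-09) and 5.69 (SE 0.20, adjusted p = 7.87e-11), and every U-251MG library was above the other lines. ADAMTS4, an aggrecanase, averaged 50.6 ± 4.63 CPM in U-251MG, against 0.0772 ± 0.0781 CPM in A-431 and 0.0472 ± 0.0533 CPM in U-2 OS. HTRA1, a secreted serine protease, averaged 114 ± 10.2 CPM in U-251MG, against 0.118 ± 0.107 CPM in A-431 and 4.58 ± 0.557 CPM in U-2 OS. SERPINA3, antichymotrypsin of reactive astrocytes, had 158, 90.4, 64.7 and 75.3 CPM in U-251MG, against 0.0983 to 0.596 CPM in A-431 and 1.08 to 1.83 CPM in U-2 OS, with library 17 well above the other U-251MG libraries. On the lower side, CTSZ, the lysosomal cathepsin Z, averaged 0.610 ± 0.0659 CPM in U-251MG, against 157 ± 7.75 CPM in A-431 and 169 ± 5.43 CPM in U-2 OS. SERPINB5, the epithelial serpin maspin, had 3 reads in U-251MG in all.

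Enzymes that modify the cell surface were also among the greatest differences. HS3ST3A1 and HS3ST3B1 place sulfate groups on heparan sulfate and are close copies of each other on chromosome 17. HS3ST3A1 averaged 50.8 ± 7.45 CPM in U-251MG, against 0.00876 ± 0.0175 CPM in A-431 and 0.0939 ± 0.101 CPM in U-2 OS. HS3ST3B1 averaged 75.1 ± 5.97 CPM in U-251MG, against 0.0345 ± 0.0399 CPM in A-431 and 0.0349 ± 0.0348 CPM in U-2 OS. Because reads that fit both copies could be lost or split, their separate levels are uncertain. MME, the peptidase neprilysin, averaged 86.3 ± 6.57 CPM in U-251MG, against 0.0327 ± 0.0378 CPM in A-431 and 0.165 ± 0.105 CPM in U-2 OS.

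Growth factors of receptor tyrosine kinases were higher in 15 of 34 tested cases (44.1%) and lower in 3 (8.82%), with medians of 1.68 over A-431 and 0.91 over U-2 OS. FGF5, a secreted fibroblast growth factor, had 54.6, 55.6, 101 and 87.5 CPM in U-251MG, against 0.0313 to 0.0655 CPM in A-431 and 4.58 to 5.53 CPM in U-2 OS. These were log2 fold changes of 10.67 (SE 0.43, adjusted p = 6.92e-10) and 3.87 (SE 0.25, adjusted p = 5.77e-08). Libraries 17 and 18 were below 19 and 20, a split that coincides with the flow cells inferred above. Its cause was not tested. EGF, the ligand of the epidermal growth factor receptor, had 18.8 to 19.6 CPM in U-251MG, against 0.721 to 1.19 CPM in A-431 and 3.99 to 4.87 CPM in U-2 OS. The intracellular FGF homologues FGF12 and FGF13, which bind sodium channels, averaged 31.0 ± 4.67 and 18.7 ± 2.04 CPM in U-251MG, against 0.0979 ± 0.0601 and 0.183 ± 0.0414 CPM in A-431 and 3.46 ± 0.484 and 2.95 ± 0.483 CPM in U-2 OS. Both are counted among the 15 higher members, and FGF11, of the same kind, among the 3 lower ones.

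Receptors were called in both directions. GFRA1, the co-receptor of the glial growth factor GDNF, had 369.6, 324, 334 and 324 CPM in U-251MG, against 0 to 0.280 CPM in A-431 and 0.183 to 0.490 CPM in U-2 OS. Log2 fold changes were 11.27 (SE 0.19, adjusted p = 1.05e-18) and 10.08 (SE 0.20, adjusted p = 1.51e-17). EPHA3, an ephrin receptor, had 197 to 209 CPM in U-251MG, against 0 to 0.140 CPM in A-431 and 0.417 to 0.842 CPM in U-2 OS. Both were detected at high levels in U-251MG alone. Neither is in the list of 35 tested receptor tyrosine kinases, of which 7 were higher and 8 lower (22.9%), beside 15.3% and 14.8% of all genes. Of 21 tested Eph receptors and ephrins, 4 were higher and 5 lower (23.8%). KDR, the VEGF receptor of endothelium, had 4.57, 6.95, 12.3 and 10.9 CPM in U-251MG, against 0 in A-431 and 0.147 to 0.243 CPM in U-2 OS, while the endothelial markers fixed for the check summed to 0.219 to 0.287 CPM in U-251MG, against 1.397 to 2.03 CPM in A-431 and 3.37 to 3.99 CPM in U-2 OS. ERBB3, a receptor of neuregulins, averaged 0.444 ± 0.127 CPM in U-251MG, against 129 ± 10.6 CPM in A-431 and 8.26 ± 0.398 CPM in U-2 OS. FGFR2 averaged 1.60 ± 0.435 CPM in U-251MG, against 27.7 ± 2.84 CPM in A-431 and 23.1 ± 0.267 CPM in U-2 OS. EPHB6, an ephrin receptor without kinase activity, had no read in U-251MG and was at least 25.1-fold lower than in A-431 and at least 842-fold lower than in U-2 OS.

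Axon guidance genes were higher in 17 of 55 tested cases (30.9%) and lower in 5 (9.09%), with medians of 1.98 over A-431 and 0.02 over U-2 OS. NRP2, a co-receptor of semaphorins and of VEGF-C, had 943, 1004, 1079 and 1084 CPM in U-251MG, against 3.23 to 4.03 CPM in A-431 and 0.981, 0.586 and 1.08 CPM in U-2 OS. The fitted log2 fold changes were 8.11 (SE 0.10, adjusted p = 2.91e-23) and 10.17 (SE 0.13, adjusted p = 4.52e-22). Unlike most of the genes above, it was nearer to A-431 than to U-2 OS. NRCAM, a neuronal adhesion molecule, averaged 108 ± 4.96 CPM in U-251MG, against 0.0421 ± 0.0430 CPM in A-431 and 3.86 ± 0.183 CPM in U-2 OS. The repellent SLIT2 averaged 153 ± 30.5 CPM in U-251MG, against 0.135 ± 0.0669 CPM in A-431 and 20.6 ± 1.75 CPM in U-2 OS. UNC5C, a netrin receptor, averaged 73.2 ± 1.92 CPM in U-251MG, against 0.0412 ± 0.0502 CPM in A-431 and 7.61 ± 0.783 CPM in U-2 OS. The protocadherin PCDH10 averaged 34.1 ± 4.12 CPM in U-251MG, against 2 reads in all A-431 libraries and 2 reads in all U-2 OS libraries.

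The Notch pathway, in which membrane-bound ligands on a cell activate receptors on its neighbour, had 9 of 27 tested members higher (33.3%) and 6 lower (22.2%). The ligand JAG1 had 267, 290.1, 321 and 324 CPM in U-251MG, against 12.02 to 13.3 CPM in A-431 and 44.2 to 46.2 CPM in U-2 OS. As log2 fold changes these were 4.57 (SE 0.07, adjusted p = 8.95e-22) and 2.74 (SE 0.07, adjusted p = 6.32e-18). DNER, a neuronal Notch ligand, averaged 53.2 ± 10.2 CPM in U-251MG, against 0.486 ± 0.189 CPM in A-431 and 0.0825 ± 0.0189 CPM in U-2 OS. The receptor NOTCH3 had 0.259 to 0.717 CPM in U-251MG, against 59.0 to 82.4 CPM in A-431 and 106 to 117 CPM in U-2 OS. The ligand JAG2 averaged 0.938 ± 0.143 CPM in U-251MG, against 44.3 ± 2.77 CPM in A-431 and 4.07 ± 0.759 CPM in U-2 OS. Ligands of the pathway were thus on both sides of the comparison, and this receptor was on the lower side. Of 43 tested WNT pathway genes 8 were higher (18.6%) and 9 lower (20.9%). The shares were 15.3% and 14.8% of all genes, and 17.5% and 16.5% of protein-coding genes. WNT5B averaged 96.3 ± 0.517 CPM in U-251MG, against 0.0436 ± 0.0664 CPM in A-431 and 5.56 ± 0.433 CPM in U-2 OS. WNT7B averaged 1.19 ± 0.114 CPM in U-251MG, against 75.4 ± 5.30 CPM in A-431 and 4.77 ± 0.685 CPM in U-2 OS.

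Of 58 tested cytokines, chemokines and their receptors, 18 were higher (31.0%) and 8 lower (13.8%). IL13RA2, a high-affinity receptor of interleukin 13 known from glioblastoma, had 178, 177, 193 and 169.9 CPM in U-251MG, against 0 to 0.0701 CPM in A-431 and 0.293 to 0.666 CPM in U-2 OS. Log2 fold changes were 11.69 (SE 0.16, adjusted p = 1.42e-22) and 8.39 (SE 0.14, adjusted p = 6.17e-21). IL11, a cytokine of the interleukin 6 family, averaged 105 ± 8.99 CPM in U-251MG, against 1.17 ± 0.315 CPM in A-431 and 7.60 ± 1.09 CPM in U-2 OS. Its receptor chain IL11RA had no read in U-251MG, against 2.79 to 4.94 CPM in A-431 and 8.41 to 9.78 CPM in U-2 OS, at least 142-fold and 329-fold lower. CXCL8, the chemokine interleukin 8, had 17.4, 33.4, 65.9 and 49.8 CPM in U-251MG, against 0.526 to 0.920 CPM in A-431 and 3.41 to 3.99 CPM in U-2 OS. Its log2 fold change over U-2 OS was 3.50 (SE 0.47, adjusted p = 9.52e-05). With the contrasts fitted separately it missed the threshold (adjusted p = 0.00223).

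Some of these genes carry well-known promoter words near their start, and the letters of a few are shown for reference. RefSeq promoters, from 250 bases before to 50 after the start of transcription on GRCh38.p14, were matched for 12099 tested genes, for 446 of the 639 higher genes and for 653 of the 1084 lower genes. The AP-1 word TGACTCA or its reverse complement TGAGTCA was in 5.83% of the promoters of the higher genes and 3.68% of those of the lower genes, against 3.41% of all. It is shown in capitals for the ligand genes CXCL8 (chr4:73740422-73740448, plus strand), IL11 (chr19:55370543-55370569, minus strand) and EGF (chr4:109912856-109912882, plus strand), where it begins 137, 96 and 17 bases before the start.
CXCL8: ggaagtgtgaTGACTCAggtttgccct
IL11: gcagggagggTGAGTCAggatgtgtca
EGF: aaagcaaagcTGAGTCAttccactttt

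The TATA word TATAAA or its reverse complement TTTATA was in 10.1% of the promoters of the higher genes and 7.96% of those of the lower genes, against 6.26% of all. For UCHL1 (chr4:41256889-41256914, plus strand), ACTG2 (chr2:73892967-73892992, plus strand), THBS2 (chr6:169253860-169253885, minus strand) and CXCL8 (chr4:73740528-73740553, plus strand) the word, in capitals, begins 29, 31, 29 and 31 bases before the start. THBS2, thrombospondin 2, averaged 65.6 ± 2.16 CPM in U-251MG, against 0.669 ± 0.136 CPM in A-431 and 2.26 ± 0.0935 CPM in U-2 OS. The shares are a description of these windows, and a match is not a bound site. The octamer ATGCAAAT or ATTTGCAT was in 3.36% of the promoters of genes over 2-fold higher and 2.14% of those over 2-fold lower, against 1.39% of all. The GC box GGGCGG or CCGCCC was in 60.3% of the promoters of the higher genes and 67.1% of those of the lower genes, against 67.7% of all.
UCHL1: tggccggcgcTTTATAgctgcagcct
ACTG2: cctctggggtTTTATAttgctctggt
THBS2: agaagcggcaTATAAAgccgcgctgc
CXCL8: agggtgatgaTATAAAaagccaccgg

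Genes of the epithelial programme were on the lower side. None of 53 tested epithelial genes was higher in U-251MG than in both lines, and 24 were lower (45.3%), with medians of -8.56 over A-431 and -1.65 over U-2 OS. The list was made to mark A-431, so its direction against that line is not a finding, and U-2 OS is the contrast that adds to it. KRT8, a keratin of simple epithelia, had 3.22, 3.07, 1.22 and 1.36 CPM in U-251MG, against 2531 to 3000.3 CPM in A-431 and 475, 448 and 409.9 CPM in U-2 OS. Its log2 fold change over U-2 OS was -7.64 (SE 0.22, adjusted p = 1.26e-11). Its partner KRT18 averaged 38.7 ± 6.89 CPM in U-251MG, against 1356 ± 89.0 CPM in A-431 and 293 ± 20.1 CPM in U-2 OS. The annotated spans of both keratins overlap at their ends, and counting did not use strand. CDH1, E-cadherin, had 0.219, 0.332, 0 and 0 CPM in U-251MG, against 378 to 385 CPM in A-431 and 1.25 to 2.09 CPM in U-2 OS. PERP, a desmosome-associated membrane protein, averaged 0.166 ± 0.149 CPM in U-251MG, against 271 ± 7.35 CPM in A-431 and 27.4 ± 1.84 CPM in U-2 OS. SFN, the epithelial 14-3-3 sigma protein, averaged 1.51 ± 0.441 CPM in U-251MG, against 346 ± 25.2 CPM in A-431 and 168 ± 16.3 CPM in U-2 OS. U-2 OS held an intermediate level of each of these genes.

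**Figure D3:**
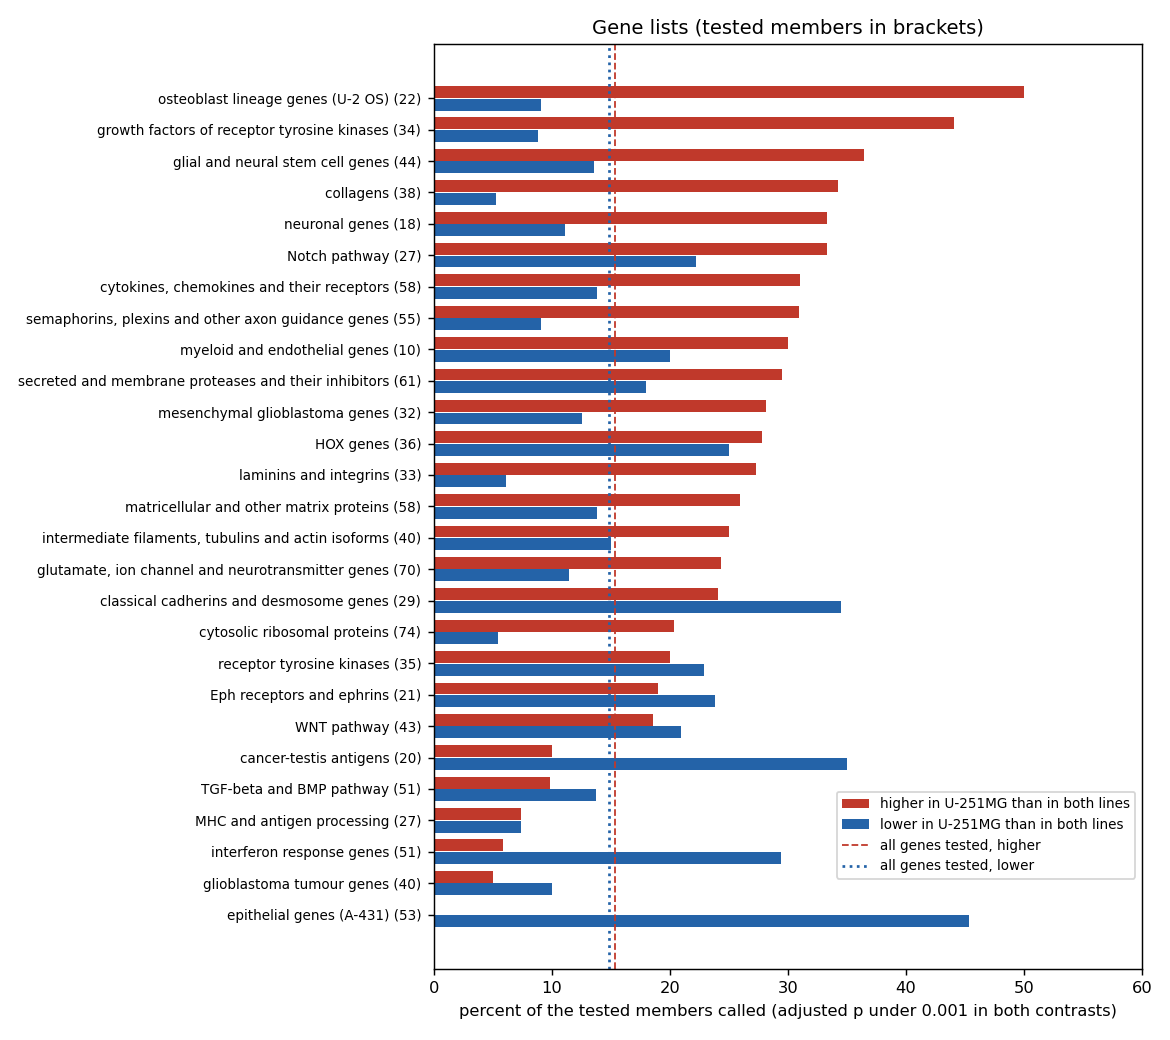
Percent of the tested members of each gene list called higher (red) or lower (blue) in U-251MG than in both other lines, with the number of tested members in brackets; the dashed and dotted lines give 15.3% and 14.8%, the shares over all 19344 genes. Bone-lineage genes have the longest red bar (11 of 22), followed by growth factors at 44.1%, whereas epithelial genes reach 45.3% lower with none higher and cancer-testis antigens 35.0% lower. The lists were chosen with earlier results of these data known.

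The genes with the greatest distance downward were often near 0 in U-251MG. They were chosen among genes with a mean of at least 32 CPM in each other line and no overlap with U-251MG libraries. Neither their level there nor their separation is therefore a finding. PTPN3, a tyrosine phosphatase, had 0, 0.111, 0 and 0 CPM in U-251MG, against 57.1 to 62.5 CPM in A-431 and 42.8 to 43.8 CPM in U-2 OS. It was 2162-fold lower than in A-431 (interval 739.6 to 10488, from 3 reads) and 1552-fold lower than in U-2 OS (interval 530.5 to 7527). STAT6, the transcription factor that answers to interleukins 4 and 13, had 0.183, 0.259, 0.143 and 0.0779 CPM in U-251MG, against 114 to 131 CPM in A-431 and 80.0 to 89.0 CPM in U-2 OS. On the log2 scale the fold changes were -9.45 (SE 0.13, adjusted p = 1.28e-22) and -8.94 (SE 0.13, adjusted p = 2.01e-21). U-251MG was thus highest for the interleukin 13 receptor chain IL13RA2 and lowest for STAT6.

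CD40, a receptor of the tumour necrosis factor family, averaged 0.0555 ± 0.0369 CPM in U-251MG, against 41.2 ± 4.09 CPM in A-431 and 50.3 ± 1.80 CPM in U-2 OS. LY6E, a membrane protein induced by interferon, averaged 0.131 ± 0.0907 CPM in U-251MG, against 85.2 ± 11.4 CPM in A-431 and 176 ± 10.6 CPM in U-2 OS. APOBEC3B, a cytidine deaminase on chromosome 22, averaged 0.176 ± 0.106 CPM in U-251MG, against 131 ± 8.96 CPM in A-431 and 79.6 ± 0.823 CPM in U-2 OS. Several of this group act on the cytoskeleton and on membranes. MYH14, a nonmuscle myosin heavy chain, averaged 0.0657 ± 0.0382 CPM in U-251MG, against 151 ± 29.3 CPM in A-431 and 51.3 ± 1.94 CPM in U-2 OS. MTUS1, a microtubule-associated protein, averaged 0.175 ± 0.141 CPM in U-251MG, against 93.3 ± 2.38 CPM in A-431 and 127 ± 7.12 CPM in U-2 OS. FAM83H, RFLNB, MISP and PPP2R2C were likewise under 0.2 CPM in every U-251MG library and above 34 CPM in every library of the other lines.

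Interferon response genes were higher in 3 of 51 tested cases (5.88%) and lower in 15 (29.4%), with medians of -1.51 over A-431 and 0.21 over U-2 OS, opposite in sign. IFITM2, an antiviral membrane protein with near-identical relatives, averaged 1.11 ± 0.283 CPM in U-251MG, against 53.4 ± 4.92 CPM in A-431 and 29.4 ± 2.30 CPM in U-2 OS. GBP1, a guanylate-binding protein, went the other way at 58.0 ± 5.69 CPM in U-251MG, against 21.7 ± 2.12 CPM in A-431 and 1.96 ± 0.290 CPM in U-2 OS. Cancer-testis antigens, normally silent outside the germ line, were lower in 7 of 20 tested cases (35.0%) and higher in 2. MAGEA4 had 0.329, 0.702, 0.143 and 0.311 CPM in U-251MG, against 507 to 526 CPM in A-431 and 225 to 236 CPM in U-2 OS. PRAME averaged 0.197 ± 0.145 CPM in U-251MG, against 5.32 ± 0.191 CPM in A-431 and 516 ± 23.2 CPM in U-2 OS. MAGEC1 gave a single read in all of U-251MG. MAGEA4 and PRAME were thus present in both other lines and near 0 in every U-251MG library, whereas CSAG1 and MAGEA3, whose families hold near-identical copies, were called higher in U-251MG.

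Metabolic genes supplied a large difference between isoforms. LDHA, the lactate dehydrogenase subunit of glycolytic tissue, had 22.3, 26.8, 25.7 and 29.3 CPM in U-251MG, against 2184, 2251, 1973 and 1724 CPM in A-431 and 977, 910.3 and 971 CPM in U-2 OS. In log2 the fold changes were -6.29 (SE 0.10, adjusted p = 3.21e-21) and -5.19 (SE 0.10, adjusted p = 9.89e-20). LDHB, the heart-type subunit, chosen after its values were seen, had 869, 861, 827 and 828 CPM in U-251MG, against 323 to 357 CPM in A-431 and 654 to 696 CPM in U-2 OS, with log2 fold changes of 1.32 (SE 0.05, adjusted p = 3.26e-15) and 0.32 (SE 0.06, adjusted p = 3.33e-05). The subunits were therefore called in opposite directions, the first far below and the second slightly above the other lines. FTL, the ferritin light chain, averaged 1714 ± 115 CPM in U-251MG, against 275 ± 21.3 CPM in A-431 and 709 ± 41.4 CPM in U-2 OS. MT-RNR2, the large ribosomal RNA of mitochondria, averaged 2663 ± 326 CPM in U-251MG, against 10381 ± 624 CPM in A-431 and 6643 ± 307 CPM in U-2 OS. Of 9 tested fatty acid and retinoid binding proteins, 3 were higher, among them FABP7, and 3 were lower, among them CRABP2. CRABP2, which carries retinoic acid, averaged 3.77 ± 0.202 CPM in U-251MG, against 40.6 ± 6.28 CPM in A-431 and 29.2 ± 2.76 CPM in U-2 OS.

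HOX genes, which record position along the body axis, were called in both directions in 19 of 36 tested cases, 10 higher (27.8%) and 9 lower. Calls differed between the clusters. HOXD10 of the chromosome 2 cluster had 28.0, 24.6, 25.6 and 26.4 CPM in U-251MG, against 0.786 to 1.26 CPM in A-431 and 2.503 to 2.98 CPM in U-2 OS. HOXD11 averaged 9.41 ± 0.484 CPM in U-251MG, against 0.192 ± 0.0678 CPM in A-431 and 1.16 ± 0.213 CPM in U-2 OS. Of the HOXD cluster, HOXD3, HOXD4, HOXD9, HOXD10, HOXD11 and HOXD13 were higher and none was lower. In the chromosome 7 cluster HOXA9 had 0.359 to 0.662 CPM in U-251MG, against 90.1 to 102 CPM in A-431 and 24.9 to 28.5 CPM in U-2 OS, and HOXA4, HOXA11 and HOXA13 were lower as well, while HOXA6 was higher. HOXC11 averaged 0.393 ± 0.188 CPM in U-251MG, against 9.09 ± 0.104 CPM in A-431 and 9.55 ± 0.466 CPM in U-2 OS. Neighbouring HOX genes overlap, and reads that fell on both were not counted.

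Of 40 tested genes known from glioblastoma, 2 were higher and 4 lower, a smaller share in each direction than the 15.3% and 14.8% of all genes. NF1, the RAS GTPase-activating protein neurofibromin, had 35.8, 36.6, 36.1 and 35.0 CPM in U-251MG, against 142 to 149.7 CPM in A-431 and 227 to 250.2 CPM in U-2 OS. Log2 fold changes were -2.01 (SE 0.05, adjusted p = 2.84e-18) and -2.73 (SE 0.06, adjusted p = 1.16e-19). CDKN2C, the p18 inhibitor of cyclin-dependent kinases 4 and 6, had 0.0366, 0.148, 0.0717 and 0 CPM in U-251MG, against 56.9 to 63.5 CPM in A-431 and 53.6 to 54.9 CPM in U-2 OS. Its log2 fold changes were -9.76 (SE 0.17, adjusted p = 2.34e-21) and -9.61 (SE 0.17, adjusted p = 1.48e-20). The gene lies on chromosome 1 between 51426417 and 51440306 on GRCh37. Its neighbour FAF1, an adaptor of the p97 ATPase, lies between 50902700 and 51425939 and had 0.256, 0.0369, 0.0717 and 0.156 CPM in U-251MG, against 94.0 to 95.2 CPM in A-431 and 82.2 to 85.4 CPM in U-2 OS. The next tested protein-coding gene, RNF11, chosen after its values were seen, was slightly higher than in both lines at 188 to 214 CPM in U-251MG, against 139 to 167 CPM in A-431 and 109.8 to 125 CPM in U-2 OS. The call of RNF11 was lost with limma on RPKM (adjusted p = 0.0490 over A-431 and 0.0833 over U-2 OS) and, over A-431, in edgeR without the libraries placed on another flow cell (adjusted p = 0.00182). The gene after it, TTC39A, also chosen after its values were seen, was again lower at 1.02 ± 0.0819 CPM in U-251MG, against 14.4 ± 1.96 CPM in A-431 and 6.14 ± 0.362 CPM in U-2 OS. Copy number was not measured.

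The called genes were not spread evenly over chromosomes. On chromosome 14, 175 of 507 tested genes were lower in U-251MG than in both lines (34.5%), and 47 were higher (9.27%). On chromosome 22, 152 of 460 were lower (33.0%) and 13 higher (2.83%). Over all genes the shares were 14.8% and 15.3%. In the other direction, 246 of 984 genes of chromosome 6 were higher and 222 of 922 of chromosome 5 (24.1%). Neighbouring genes are not independent and no test was made of these shares, which were looked at after the values were known. Each U-251MG library showed the shift, in genes chosen by their levels in the other lines and with no minimum in U-251MG. Over 367 protein-coding genes of chromosome 14 with at least 1 CPM on average in both other lines, the median log2 ratio of libraries 17, 18, 19 and 20 to the mean of A-431 was -0.44, -0.41, -0.45 and -0.47, and to the mean of U-2 OS it was -0.50, -0.52, -0.48 and -0.50. For chromosome 22 these ratios were -0.43 to -0.53 over A-431 and -0.68 to -0.73 over U-2 OS, whereas over all 10757 such genes they were -0.02 and 0.02 to 0.04. In total RNA, 33.7% of the tested genes of chromosome 14 and 37.2% of those of chromosome 22 were lower than in both lines.

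**Figure D4:**
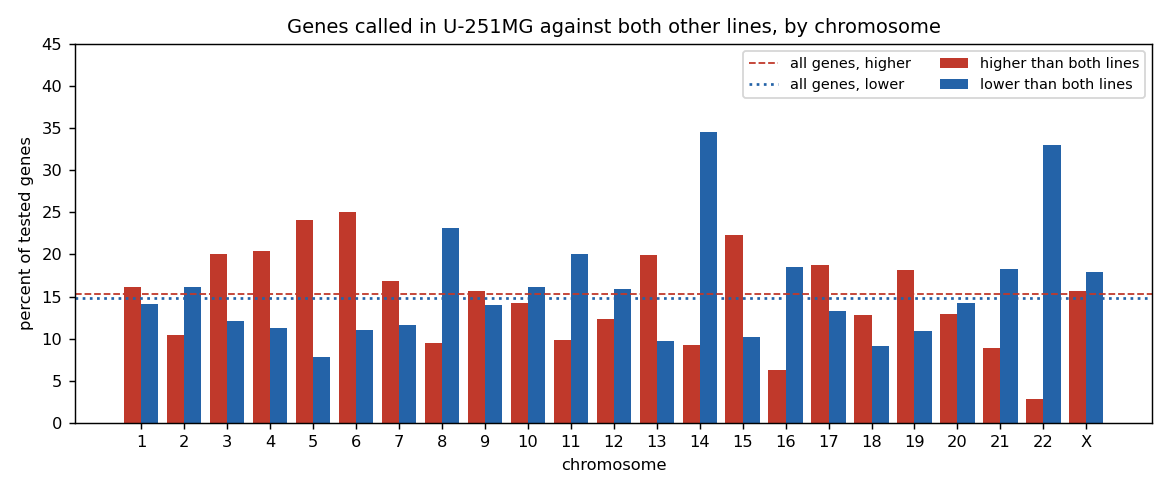
Percent of the tested genes of each chromosome (x axis, 1 to 22 and X) called higher (red) or lower (blue) in cytoplasmic RNA of U-251MG than in both other lines; dashed and dotted lines give the shares over all genes, 15.3% and 14.8%. Blue bars of chromosomes 14 and 22 reach 34.5% and 33.0%, and the red bars of chromosomes 5 (24.1%) and 6 (246 of 984 genes) are the tallest of their colour.

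The longest run of neighbouring protein-coding genes called in the same direction was on chromosome 14, where 17 genes between 65170820 and 68162510 on GRCh37 were all lower, with medians of -1.69 over A-431 and -1.58 over U-2 OS. Of these, 16 were also lower than in both lines in total RNA. The run held PALS1, a polarity scaffold, with 57.1, 61.2, 68.2 and 64.1 CPM in U-251MG, against 478 to 528 CPM in A-431 and 363 to 409 CPM in U-2 OS. It also held PLEK2, pleckstrin 2, with 0 to 0.0779 CPM in U-251MG, against 59.7 to 66.4 CPM in A-431 and 35.3 to 36.8 CPM in U-2 OS. EIF2S1, the alpha subunit of initiation factor 2, averaged 148 ± 8.83 CPM in U-251MG, against 342 ± 34.4 CPM in A-431 and 301 ± 11.4 CPM in U-2 OS. MAX, the partner of MYC, averaged 30.9 ± 2.68 CPM in U-251MG, against 99.9 ± 3.33 CPM in A-431 and 62.6 ± 2.53 CPM in U-2 OS. A second run of 11 lower genes, between 73393085 and 74062470, held NUMB, a Notch inhibitor, which averaged 29.7 ± 0.498 CPM in U-251MG, against 62.3 ± 3.55 CPM in A-431 and 52.1 ± 1.58 CPM in U-2 OS. EIF2S1, MAX and NUMB were chosen after their values were seen.

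**Figure D5:**
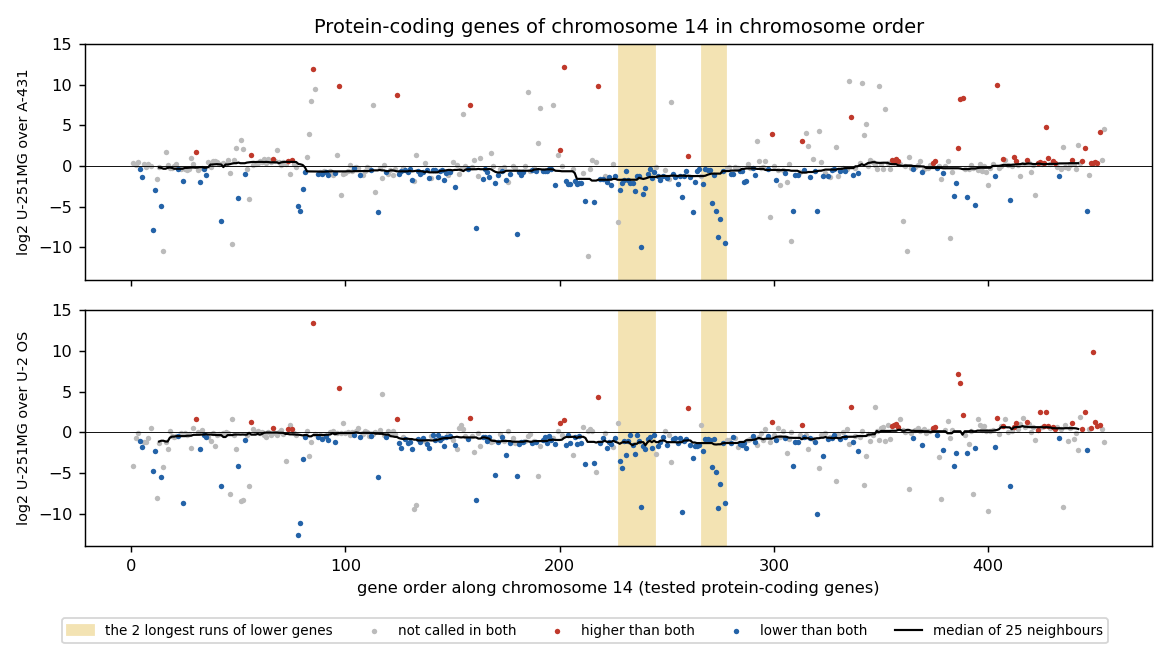
Log2 fold change of U-251MG over A-431 (upper panel) and over U-2 OS (lower panel) for the tested protein-coding genes of chromosome 14 in chromosome order; red and blue points are genes higher or lower than both lines, the black line is the median of 25 neighbours, and shading marks the runs of 17 and 11 lower genes. The median line is below 0 over the middle of the chromosome in both panels and lowest around the shaded runs, and it returns to 0 or above towards the right end.

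The lines were also compared in total RNA, in separate libraries. The labels do not say whether these came from the same cultures as the cytoplasmic libraries. Of 18610 tested genes, 28.5% were higher and 29.3% lower in U-251MG than in A-431, and 28.3% were higher and 34.2% lower than in U-2 OS. Against both lines 2738 were higher (14.7%) and 2818 lower (15.1%), and by the test against a 2-fold change 3.43% of the tested genes were higher and 5.74% lower. Of the 639 genes over 2-fold higher in cytoplasmic RNA, 564 were over 2-fold higher in total RNA (88.3%) and none was called in the opposite direction. Of the 1084 lower genes, 965 were over 2-fold lower in total RNA (89.0%) and again none was opposite. EYA4, UCHL1, COL1A2, VCAN, LDHA, STAT6 and CDKN2C were among those called in both fractions. In the cytoplasmic RPKM values with limma, the differences from U-2 OS of GFAP (adjusted p = 0.00319), SOX2 (0.00239), NES (0.0563), CXCL8 (0.00349), FGF5 (0.0112), CDH11 (0.0294), LDHB (0.0324), WNT7B (0.00159) and RNF11 (0.0833) kept their sign and missed the threshold.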

How the data were processed

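Poly(A) RNA was aligned by the authors to GRCh37 (hg19), with TopHat 1.1.4 and SAMtools 0.1.8 named in their processing notes. The deposited counts are whole reads per Ensembl gene from HTSeq 0.4.6. Entries that name no gene were left out (30.6% of reads at most). Deposited RPKM values served only as an alternative. The authors' sources name both Trizol and RNeasy.

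The 11 cytoplasmic libraries were fitted together in edgeR 4.0.16 (R 4.3.3), scaled by TMM after filterByExpr. Contrasts used its robust quasi-likelihood test with Benjamini-Hochberg adjustment over 19344 genes (adjusted p under 0.001 in both) and glmTreat for a 2-fold change. In simulated data 24 of 50 genes changed by log2 0.5 were called, 44 of 50 by 1, 50 of 50 by 3, and 0 of 19144 unchanged genes. The simulation changed U-251MG alone and kept the other lines equal. It therefore gives no rate of false calls for genes that differ from a single line. Coordinates are GENCODE v44lift37. Where a group had 0 reads, folds are bounds at 3 reads over the group. The 95% intervals cover counting error only.

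Members and the 29 gene lists were chosen with earlier results of these data known. Genes were named by a rule (15 with the greatest smaller fold change and at least 32 CPM, and 8 of highest level, in each direction; up to 5 over 2-fold per list and direction at 5 CPM or more; line markers), with 7, and the members named for small counts, chosen after their values were seen, and some genes the rule gave are not reported here. The bound of 32 CPM held for U-251MG in higher genes and for each other line in lower genes. These 15 genes also had to show no overlap between U-251MG libraries and any other cytoplasmic library. Alternatives were other scalings, DESeq2 1.42.0, limma 3.58.1 on log2(RPKM + 0.1), thresholds, filters, flow cell, GC offset, thinning, other sets of libraries and leaving out each library.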

Additional observations from a re-analysis of the deposited data

Results flagged for a closer look

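Among 266 groups of 4 libraries of the genes named (133 genes, in U-251MG and in A-431), 29 held a library that stood apart from the other 3 by Dixon's criterion, where chance gives about 1 in 20 for values that vary smoothly. Groups under 0.2 CPM hold 0 to a few reads, and that rate does not hold for them. Library 24 of A-431 accounted for 12 of them.

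In U-251MG, library 17 was apart for COL14A1, a fibril-associated collagen (42.6 CPM, others 24.96 to 27.9), GBP1 (66.5 CPM, others 54.6 to 56.3) and MAX (34.8 CPM, others 29.2 to 30.1). Library 18 was apart for SPP1 (83.2 CPM, others 72.2 to 72.6), CD40 (0.111 CPM), PTPN3 (0.111 CPM) and WNT7A (0.0369 CPM). Library 19 was apart for LAMA4, a laminin chain (149.6 CPM, others 136 to 138), HOXA13 (0.861 CPM) and PLEK2 (0 CPM, others 0.0731 to 0.0779). Library 20 held the single read of MAGEC1 (0.0389 CPM).

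In A-431, library 24 was above the rest for MYH14 (194 CPM, others 134 to 137), KRT18 (1489 CPM), KRT5 (93.5 CPM), LY6E (102 CPM), ERBB3 (145 CPM), FBLN1 (55.0 CPM), PLEK2 (66.4 CPM), NDRG2 (18.7 CPM), GBP1 (24.8 CPM) and HS3ST3A1 (0.0350 CPM), and below it for PALS1 (478 CPM, others 519 to 528) and MAGEC1 (23.6 CPM). The other libraries were apart for SOX2 (0.0627 CPM, library 21), CDH4 and IL13RA2 (0 CPM, library 22), FGF5 (0.0655 CPM, library 22) and COL14A1 (0.0341 CPM, library 23), and for FGF12 (0.188 CPM, library 21). Without A-431 library 24, none of the 133 genes changed its call in edgeR. In GC content, libraries differed within each line. The measure was the median log2 deviation of GC-rich genes (over 60% GC) less the median of GC-poor genes (under 40%). It was -0.14 to 0.29 in U-251MG, -0.11 to 0.19 in A-431 and -0.17 to 0.14 in U-2 OS. Its part in these values was not tested.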

How the results depend on the processing

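No paired analysis was possible because the library numbers are unique to a library and the groups are different cell lines. Every count of called genes stayed within 1.5 times its value under each alternative except limma on log2(RPKM + 0.1), which called 3653 genes higher than A-431, 2815 higher than U-2 OS, 1192 higher than both (1963 lower) and 309 over 2-fold higher than both; the cause was not tested. Leaving out each library gave 2735 to 3054 genes higher and 2595 to 2786 lower than both lines, and 588 to 650 and 1007 to 1060 over 2-fold; against A-431 5555 to 5967 were higher and 5265 to 5764 lower, against U-2 OS 5061 to 5594 and 6030 to 6543, and in total RNA 2596 to 2847 and 2534 to 2760. Upper-quartile scaling moved the median of all genes over U-2 OS to -0.12, and 2779 genes were higher and 3045 lower. In refits of single named genes 6620 values kept their call, 28 missed the threshold, 1 passed it (MTAP over A-431 with a GC offset) and none reversed. The share of chromosome 14 lower than both lines was 26.1% with no filter on low counts and 21.1% on RPKM, against 9.93% and 8.23% of all genes. That of chromosome 22 was 21.9% and 15.6%. The shares higher than both lines were 15.2% and 8.51% for chromosome 5, and 15.9% and 9.33% for chromosome 6. Of all genes, 9.87% and 4.995% were higher than both lines in these settings. More genes were tested in both settings, and these shares were chosen after seeing the data. Genes at a few reads in U-251MG are limited by depth: their folds are bounds or have wide intervals.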

Other observations

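Of 74 tested cytosolic ribosomal protein genes, 15 were higher than in both lines (20.3%) and 4 lower (5.41%), none of them over 2-fold, with medians of 0.10 over A-431 and 0.30 over U-2 OS. Ribosomal proteins have many processed copies, and their counts are uncertain for that reason. Of 27 tested antigen processing genes 2 were higher (7.41%) and 2 lower (7.41%), beside 15.3% and 14.8% of all genes. In each direction 1 was over 2-fold. ERAP2, an aminopeptidase of the endoplasmic reticulum, averaged 94.3 ± 3.48 CPM in U-251MG (SD, n = 4), against 9.08 ± 0.864 CPM in A-431 (n = 4) and 4.38 ± 0.149 CPM in U-2 OS (n = 3). KCNMA1, a potassium channel opened by calcium, averaged 137 ± 11.5 CPM in U-251MG, against 0.258 ± 0.0275 CPM in A-431 and 15.99 ± 1.37 CPM in U-2 OS, and PMEPA1, a membrane protein induced by TGF-beta, averaged 1561 ± 50.6 CPM in U-251MG, against 14.4 ± 1.48 CPM in A-431 and 278 ± 10.9 CPM in U-2 OS.

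Among protein-coding genes, the share over 2-fold lower in U-251MG than in both lines was 8.90% in the fourth of the genes with the highest GC content and 3.21% in that with the lowest, while the share over 2-fold higher was 2.85% and 4.06%. MTAP, which neighbours CDKN2A on chromosome 9 and was chosen after its values were seen, averaged 111 ± 10.6 CPM in U-251MG, against 120.4 ± 9.39 CPM in A-431 and 56.5 ± 2.85 CPM in U-2 OS.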
